A study of Homo sapiens with 8 samples.

Results

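MALAT1, NEAT1, TUG1, PVT1 and the snoRNA host genes GAS5, ZFAS1, SNHG1, SNHG5, SNHG8 and SNHG12 are 10 long non-coding RNA (lncRNA) genes that were taken by name from the 60291 genes in the count files. All 10 were above the filter on low counts that left 17811 genes for testing. The cells were A549, an established human lung adenocarcinoma line in which a loss-of-function mutation of KEAP1 keeps NRF2, the transcription factor encoded by NFE2L2, constantly high. All groups share this background. For each transfection, 250000 cells received Lipofectamine RNAiMAX, and 5 nmol of an siRNA duplex (a short double-stranded RNA that directs cleavage of a matching mRNA) was included except in the mock transfection. The NFE2L2 siRNA group held 3 libraries, each from a different duplex transfected once. The control siRNA group held 4 libraries, from 2 control duplexes with 2 transfections each, and the mock group held 1 library with the reagent alone. RNA was collected 48 h after transfection and sequenced as total RNA after removal of ribosomal RNA, with strand kept. Nothing in the labels says that the transfections were independent cultures. The NFE2L2 siRNA libraries differ in duplex, while 2 control libraries share each control duplex, and the tests counted all 4 as separate. The p-values therefore describe the pooled spread between these duplexes and transfections.

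MALAT1 and NEAT1 are long, mostly unspliced RNAs that stay in the nucleus, MALAT1 at nuclear speckles, where splicing factors gather, and NEAT1 as the scaffold of paraspeckles. TUG1 and PVT1 are spliced lncRNAs, and PVT1 lies next to the oncogene MYC. The snoRNA host genes carry small nucleolar RNAs (snoRNAs) in their introns, which guide chemical modification of ribosomal RNA once they are cut out and packed into snoRNP particles. The spliced host RNA itself is often short-lived. Several hosts begin with a 5′ terminal oligopyrimidine (TOP) tract, a C followed by more pyrimidines, which is also found at the start of mRNAs for ribosomal proteins and translation factors.

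The annotated starts of the 6 host RNAs are shown because the TOP tract is found among them and not among the transcripts of MALAT1, NEAT1 and TUG1. In GENCODE 44 lifted to hg19, a start of C followed by at least 4 pyrimidines was held by 2.59% of all 254413 transcripts and by 2.81% of the 55764 lncRNA transcripts. It was held by 50 of the 91 GAS5 transcripts, 6 of 14 for ZFAS1, 5 of 15 for SNHG8, 6 of 19 for SNHG12, 3 of 89 for SNHG5 and 1 of 80 for SNHG1. The transcripts without it numbered 66 of 66 for MALAT1, 9 of 9 for NEAT1 and 20 of 20 for TUG1, and 7 of 190 PVT1 transcripts had it. For the genes below, the most frequent start among the annotated transcripts (first 30 bases, within the first exon) is given 5′ to 3′ on the transcribed strand, with the opening pyrimidine run in capitals. The start shown was held by 50 of 91 transcripts for GAS5, 5 of 14 for ZFAS1, 5 of 15 for SNHG8, 4 of 19 for SNHG12, 61 of 89 for SNHG5 and 7 of 80 for SNHG1, so for ZFAS1, SNHG8, SNHG12 and SNHG1 most transcripts begin elsewhere. For GAS5, ZFAS1 and SNHG5 it is the start of a transcript that the annotation marks as canonical, its representative of the gene. For SNHG8, SNHG12 and SNHG1 it is not. The GAS5 start lies at chr1:173837098-173837127 (minus strand), the ZFAS1 start at chr20:47895179-47895208 (plus), the SNHG8 start at chr4:119199913-119199942 (plus), and the SNHG12 start at chr1:28908356-28908385 (minus). The starts of SNHG5, at chr6:86388437-86388466 (minus), and SNHG1, at chr11:62622931-62622960 (minus), have no such run.
GAS5: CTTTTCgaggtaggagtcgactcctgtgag
ZFAS1: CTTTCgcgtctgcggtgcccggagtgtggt
SNHG8: CTTTCacattcgggaagcgtcgggattagg
SNHG12: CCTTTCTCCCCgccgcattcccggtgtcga
SNHG5: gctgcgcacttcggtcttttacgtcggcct
SNHG1: cttattgggctcctgtctgcaggatttacg

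NRF2 binds DNA at antioxidant response elements, whose core is TGACNNNGC. This core was searched on both strands of the RefSeq promoter windows (GRCh38.p14, from 250 bases before to 50 bases after each annotated start), of which 13.3% of 35116 held it. Among the 8 genes with a window, only MALAT1 had a match. Its first window held 1 match on each strand, 51 and 231 bases before the start, at chr11:65497677-65497705 (plus strand) and chr11:65497497-65497525 (minus strand). They are printed below with the core in capitals. MALAT1 was higher with NFE2L2 siRNA, and a link between the matches and its level was not tested. No window was matched for NEAT1 and PVT1. A match is a stretch of letters and not a measured binding site.
MALAT1 plus strand: cgtttgtcccTGACGCAGCcccaccggtt
MALAT1 minus strand: gcgcagcgcgTGACTGCGCacgcgcgccc

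The depth was alike in all libraries, with gene counts of 35525141 in the shallowest and 41645410 in the deepest. The 10 genes were well covered, from 931 reads on PVT1 in 1 library to 326390 on MALAT1 in another. Levels are given below as TMM-normalized CPM, counts per 1000000 gene counts. TMM is a scaling that sets libraries to the same level for most genes. Differences are log2 fold changes (NFE2L2 siRNA minus control siRNA) from edgeR's quasi-likelihood test, with the standard error (SE) and the p-value adjusted over all 17811 genes, and a call required an adjusted p under 0.01. The knockdown was visible in the target and in known NRF2 targets. NFE2L2 itself had 38.2 ± 12.1 CPM with NFE2L2 siRNA (SD, n = 3) against 112 ± 4.34 in the control siRNA libraries (SD, n = 4), and it fell by 1.55 on the log2 scale. The log2 fold changes of GCLM, NQO1 and TXNRD1 were -2.52, -2.19 and -2.57, and all were called. The epithelial markers were present, with KRT8 at 4282 and KRT18 at 3457 CPM in the controls, while EPCAM was at 5.00. Markers of fibroblast, blood and endothelial cells were at 4.29 CPM or less in the controls.

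None of the 10 genes passed the threshold of 0.01 between NFE2L2 and control siRNA by edgeR, where 2.76% of all tested genes did. At an adjusted p under 0.05, MALAT1 was higher and SNHG1 and SNHG8 were lower, against a background of 4.63% of all genes called higher and 3.54% called lower at that threshold. With DESeq2 the same 3 genes passed 0.01, where 7.38% of all genes did. Unadjusted p-values were under 0.05 for 5 of the 10 genes and for 25% of all genes. The groups did not overlap for MALAT1, with all NFE2L2 siRNA libraries above all controls as for 11.9% of genes, nor for SNHG1 and SNHG8, with all below as for 11.4% of genes. The median log2 fold change of the 10 genes was -0.21, against 0.0082 over all genes.

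**Figure D1:**
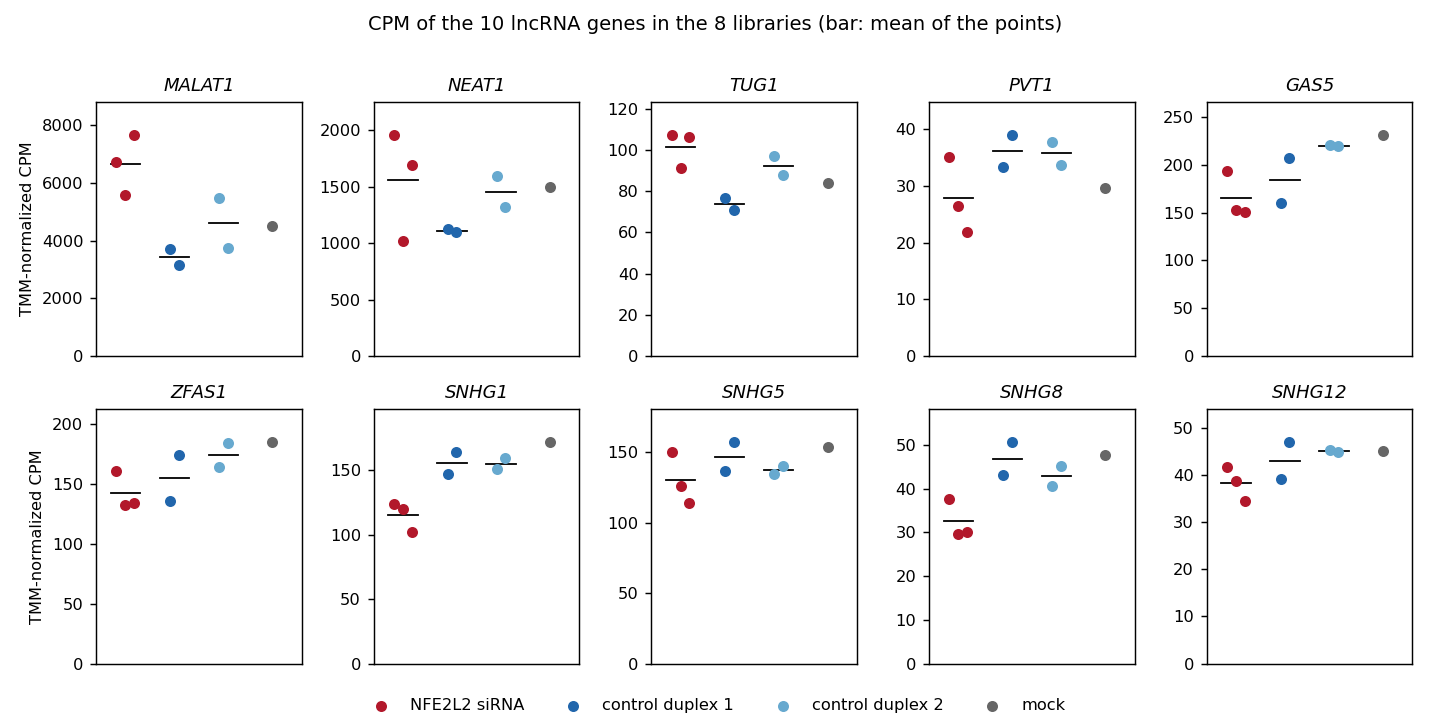
TMM-normalized CPM (y axis, from 0) of each of the 10 genes, 1 point per library, for NFE2L2 siRNA (3 duplexes), control duplex 1, control duplex 2 (2 transfections each) and mock, with bars at the means. MALAT1 lies above the controls in all 3 NFE2L2 siRNA libraries, SNHG1 and SNHG8 lie below them, and the other genes overlap.

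MALAT1 (ENSG00000251562.3, chr11:65265111-65275544, plus strand, hg19) was the most abundant of the 10 and ranked 11 among all genes by its reads in the controls. It had 6743, 5582 and 7673 CPM with NFE2L2 siRNA duplexes 1, 2 and 3. It had 3706 and 3144 in the 2 transfections of control duplex 1, 5492 and 3731 in those of control duplex 2, and 4520 in the mock library. The lowest NFE2L2 siRNA library therefore stood just above the highest control, which was the first transfection of control duplex 2. The log2 fold change was 0.73 (SE 0.184, edgeR adjusted p = 0.0398), a fold of 1.66, and DESeq2 gave an adjusted p of 0.00477. Against control duplex 1 alone the difference was 0.95 (edgeR adjusted p = 0.0400), and against control duplex 2 alone it was 0.53 (edgeR adjusted p = 0.293). Leaving out each of the 7 libraries in turn gave edgeR adjusted p-values of 0.0120 to 0.136, the lowest without the first transfection of control duplex 2 and the highest without NFE2L2 siRNA duplex 3. The pass at 0.05 was kept without NFE2L2 duplex 2 or that control library and lost without any one of the 5 others.

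NEAT1 (ENSG00000245532.4, chr11:65190245-65213011, plus strand) is transcribed from the same region of chromosome 11. Its levels were 1959, 1015 and 1691 CPM with NFE2L2 siRNA duplexes 1, 2 and 3. They were 1125 and 1095 with control duplex 1, 1591 and 1321 with control duplex 2, and 1495 in the mock library. The 3 NFE2L2 duplexes split, since duplexes 1 and 3 were above every control library and duplex 2 was below every one. The log2 fold change was 0.28 (SE 0.211, edgeR adjusted p = 0.454), and it was 0.50 without duplex 2 (edgeR adjusted p = 0.0706) but 0.077 without duplex 1 (edgeR adjusted p = 0.848). MALAT1 and NEAT1 together took 0.865%, 0.671% and 0.956% of the gene counts with NFE2L2 siRNA, between 0.416% and 0.709% in the controls, and 0.608% in the mock library.

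TUG1 (ENSG00000253352.4, chr22:31365231-31375381, plus strand), which GENCODE 44 types as protein-coding, had 107, 91.1 and 106 CPM with the NFE2L2 duplexes. The controls had 76.6 and 71.1 with duplex 1 and 96.9 and 88.1 with duplex 2, and the mock library had 84.2. Duplexes 1 and 3 were above all controls, and duplex 2 lay between the libraries of control duplex 2. The difference was 0.29 (SE 0.122, edgeR adjusted p = 0.175).

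PVT1 (ENSG00000249859.3, chromosome 8) had the lowest read count of the 10 genes. Its levels were 35.1, 26.5 and 21.9 CPM with the NFE2L2 duplexes, 33.3 and 39.0 with control duplex 1, 37.8 and 33.7 with control duplex 2, and 29.6 in the mock library. Duplexes 2 and 3 were below every control library while duplex 1 was among them, and the mock library was below all 4 controls as well. The log2 fold change was -0.37 (SE 0.155, edgeR adjusted p = 0.172), and it was -0.57 without NFE2L2 duplex 1 (edgeR adjusted p = 0.0209) but -0.22 without NFE2L2 duplex 3 (edgeR adjusted p = 0.404).

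The snoRNA host genes were between 72.5% and 91.6% of the control level by the fitted folds, and 2 of the 6 had groups that did not overlap. SNHG1 (ENSG00000255717.2, chr11:62619450-62623425, minus strand), host of several C/D box snoRNAs, had 124, 119.8 and 102 CPM with NFE2L2 duplexes 1, 2 and 3. It had 147 and 164 with control duplex 1, 151 and 159.7 with control duplex 2, and 172 in the mock library. All 3 NFE2L2 siRNA libraries were therefore below all 5 others. The difference was -0.43 (SE 0.0962, edgeR adjusted p = 0.0253, DESeq2 adjusted p = 0.00183), and it was -0.44 against control duplex 1 alone and -0.43 against control duplex 2 alone, where it did not pass 0.05 (edgeR adjusted p = 0.139 and 0.170). Its edgeR adjusted p ran from 0.0183 to 0.0938 when single libraries were left out.

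SNHG8 (ENSG00000269893.2, chr4:119199858-119206471, plus strand) is the host of an H/ACA box snoRNA. It had 37.6, 29.7 and 30.2 CPM with the NFE2L2 duplexes. The control libraries had 43.1 and 50.6 with duplex 1 and 40.6 and 45.1 with duplex 2, and the mock library had 47.6. As for SNHG1, all NFE2L2 siRNA libraries were below all others. The difference was -0.46 (SE 0.121, edgeR adjusted p = 0.0449, DESeq2 adjusted p = 0.00901), and single libraries left out gave edgeR adjusted p-values of 0.0142 to 0.142.

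GAS5 (ENSG00000234741.3, chr1:173827697-173838020, minus strand), a TOP host gene first known for its accumulation in growth-arrested cells, had 193, 153 and 151 CPM with the NFE2L2 duplexes. The controls had 160.3 and 208 with duplex 1 and 220.4 and 219 with duplex 2, and the mock library had 231. The groups overlapped through the first transfection of control duplex 1. The difference was -0.29 (SE 0.137, edgeR adjusted p = 0.229). ZFAS1 (ENSG00000177410.8, chr20:47894715-47916137, plus strand), antisense to the start of ZNFX1, showed the same low control library, with 136 CPM there and 174, 164 and 184 in the others. It had 160.4, 133 and 134 with the NFE2L2 duplexes and 185 in the mock library, a difference of -0.21 (SE 0.121, edgeR adjusted p = 0.322).

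SNHG5 (ENSG00000203875.6, chr6:86360209-86388650, minus strand) was the host with the smallest difference. It had 150.3, 126 and 114 CPM with the NFE2L2 duplexes, 136 and 157 with control duplex 1, 134 and 140.45 with control duplex 2, and 153 in the mock library. NFE2L2 duplex 1 was above 3 of the 4 controls and the other NFE2L2 duplexes were below all 4, and the difference was -0.13 (SE 0.112, edgeR adjusted p = 0.524). SNHG12 (ENSG00000197989.9, chr1:28905050-28909644, minus strand) had 41.6, 38.7 and 34.4 with the NFE2L2 duplexes, 39.0 and 46.9 with control duplex 1, 45.3 and 44.8 with control duplex 2, and 45.1 in the mock library. Its groups overlapped at the first transfection of control duplex 1, with a difference of -0.20 (SE 0.106, edgeR adjusted p = 0.271).

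In all 6 host genes, NFE2L2 duplex 1 gave the highest of the 3 NFE2L2 values. This was not particular to the hosts, since NEAT1, TUG1 and PVT1 had the same order at the top, while MALAT1 was highest with duplex 3. In GAS5, ZFAS1, SNHG1 and SNHG12, and also in PVT1, the first transfection of control duplex 1 gave the lowest of the 4 control values. The share of all genes with these orders was not computed. Together the 6 hosts took 0.0703%, 0.0610% and 0.0578% of gene counts with NFE2L2 siRNA and 0.0632%, 0.0786%, 0.0756% and 0.0806% in the controls. The 4 hosts printed above with a TOP tract (GAS5, ZFAS1, SNHG8 and SNHG12) had differences of -0.29, -0.21, -0.46 and -0.20, and SNHG1 and SNHG5 had -0.43 and -0.13. This division rests on the printed annotated start alone and does not show that SNHG1 and SNHG5 lack the tract. The printed SNHG1 start was held by only 7 of 80 transcripts, and the tract opens 1 of 80 SNHG1 and 3 of 89 SNHG5 transcripts.

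The snoRNAs themselves could be looked up only in part. In the annotation used, no snoRNA gene was found inside SNHG1, SNHG5 or SNHG8, so any snoRNAs of these hosts were not examined. Of the snoRNA genes inside the 6 hosts, 5 had an annotated position and an identifier in the counts. They were SNORD78 in GAS5, SNORD12, SNORD12B and SNORD12C in ZFAS1, and SNORD99 in SNHG12. Each had 0 to 3 reads in any library, at or below the floor of 3 counts, and none could be tested. The values above are thus of the host RNAs and say nothing of snoRNA amounts.

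Both control duplexes were used as controls, and the difference between them is given here beside that between NFE2L2 and control siRNA. By edgeR none of the 10 passed 0.01, where 3.28% of 17261 genes did. At 0.05, 2 of the 10 passed, NEAT1 and TUG1, against 10.1% of all genes, and the same 2 passed 0.01 with DESeq2, where 4.4% of all genes did. TUG1 was 0.33 higher on the log2 scale with duplex 2 than with duplex 1 (SE 0.0684, edgeR adjusted p = 0.0147, DESeq2 adjusted p = 0.00471, 2 libraries per duplex), against its difference of 0.29 between NFE2L2 and control siRNA. NEAT1 was 0.40 higher (SE 0.0904, edgeR adjusted p = 0.0221, DESeq2 adjusted p = 0.000219), against 0.28. MALAT1 was 0.43 higher (SE 0.154, edgeR adjusted p = 0.106), and GAS5 0.26 higher (SE 0.101, edgeR adjusted p = 0.132). In all 4 of these genes both libraries of duplex 2 were above both of duplex 1, as in 27.3% of all genes. Without either library of duplex 2, NEAT1 and TUG1 no longer passed 0.05 (without its first transfection, 0.26 in both, with edgeR adjusted p = 0.394 and 0.377), and MALAT1 was 0.13 without the first and 0.68 without the second. Nor did NEAT1 and TUG1 pass 0.05 with a filter of 1 read (edgeR adjusted p = 0.144 and 0.127) or in a fit of all 7 libraries in 3 groups (0.850 and 0.612). For SNHG1 the duplexes differed by 0.0020 (SE 0.0713) and for SNHG8 by -0.12 (SE 0.0877). The comparisons share the control libraries and are given side by side for that reason only.

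**Figure D2:**
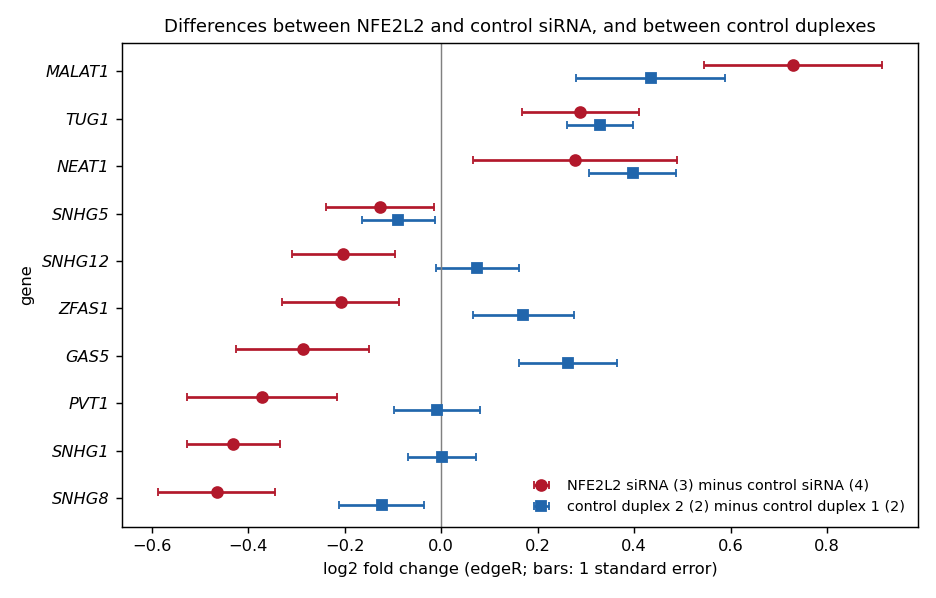
edgeR log2 fold change (x axis, bars of 1 SE) of each gene for NFE2L2 siRNA minus control siRNA (circles, 3 against 4 libraries) and control duplex 2 minus control duplex 1 (squares, 2 against 2). For NEAT1 and TUG1 the square lies farther from 0 than the circle, and for SNHG1 the square lies at 0.0020 while the circle lies at -0.43.

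MALAT1, NEAT1 and TUG1 were read beside the share of reads that fell in no gene feature, a class that holds reads from introns and other places outside annotated exons. This share was 15.3%, 12.8% and 12.8% with NFE2L2 duplexes 1, 2 and 3, 11.7% and 12.3% with control duplex 1, 15.0% and 13.0% with control duplex 2, and 13.7% in the mock library. Among the controls, the first transfection of duplex 2 was highest in this share and in MALAT1, NEAT1 and TUG1. NFE2L2 duplex 1 had the highest share of the 8 libraries and the highest NEAT1 and TUG1. NFE2L2 duplexes 2 and 3 had nearly the same share, and MALAT1 was at 5582 and 7673 CPM in them and NEAT1 at 1015 and 1691. The mean share was 13.6% with NFE2L2 siRNA and 13.0% with control siRNA (two-sided exact permutation test, p = 0.457, where the smallest p that 35 divisions allow is 0.0571). The part of this share in the levels was not tested. Mitochondrial genes took 0.607% and 0.532% of gene counts in the same groups (exact permutation p = 0.171).

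**Figure D3:**
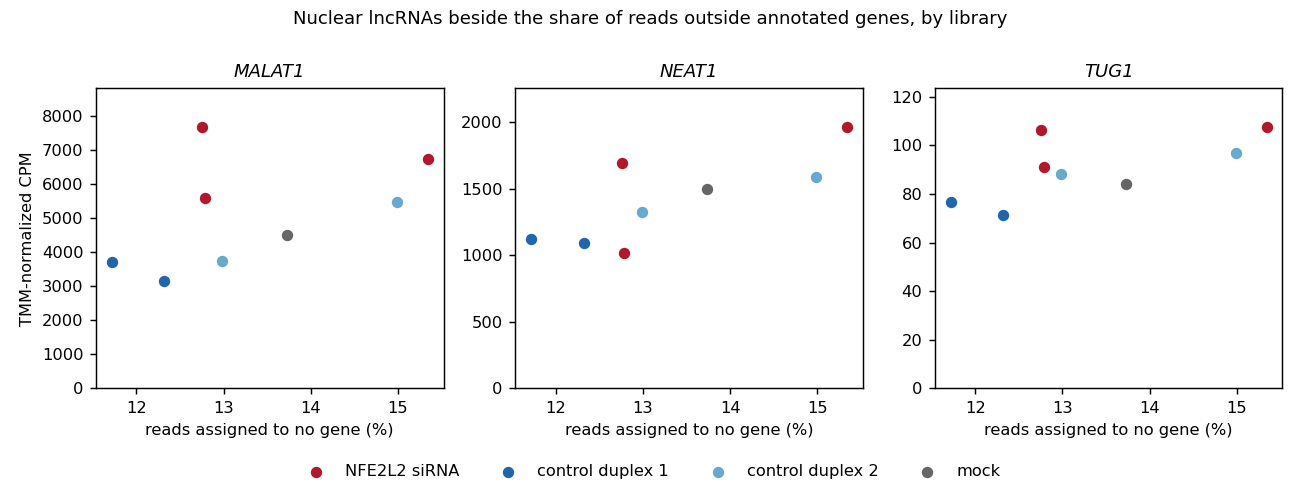
TMM-normalized CPM (y axes, from 0) of MALAT1, NEAT1 and TUG1 against the percent of reads assigned to no gene (x axes), 1 point per library. The first transfection of control duplex 2, at 15.0%, is the highest control in all 3 genes, and NFE2L2 duplexes 2 and 3, both at 12.8%, differ in MALAT1 and NEAT1.

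The mock library was close to the control siRNA libraries in all 10 genes. No gene was more than 1.5-fold from the control mean, a distance that 9.44% of all genes exceeded. GAS5, ZFAS1 and SNHG1 were above all 4 control siRNA libraries in the mock library, by 0.20, 0.17 and 0.14 on the log2 scale from the control mean, and 22.6% of all genes lay above all controls in it. PVT1 was below all 4, at -0.28, as were 22.5% of all genes. With 1 mock library there was no test.

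The order of abundance depends on the length used, since counts grow with it. Lengths came from GENCODE 44, whose models can differ from the GENCODE 19 models on which the reads were counted. Divided by the union of annotated exons, the control mean was 385 CPM per kilobase (RPKM) for MALAT1 and 56.3 for NEAT1, followed by GAS5 at 40.9, SNHG1 at 39.1, ZFAS1 at 19.8, SNHG5 at 11.3, SNHG12 at 10.3, TUG1 at 8.19, SNHG8 at 6.78 and PVT1 at 1.41. The ranges of the 4 control libraries overlapped between GAS5 and SNHG1, SNHG5 and SNHG12, SNHG12 and TUG1, and TUG1 and SNHG8, so these neighbours in the order were not separated. Divided by the longest annotated transcript, GAS5 was at 64.2 RPKM beside NEAT1 at 56.4, with overlapping ranges, and PVT1 moved up to 14.7. Both PVT1 values rest on a gene with 190 annotated transcripts, whose exon union of 25431 bases is far longer than its longest transcript of 2450 bases.

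**Figure D4:**
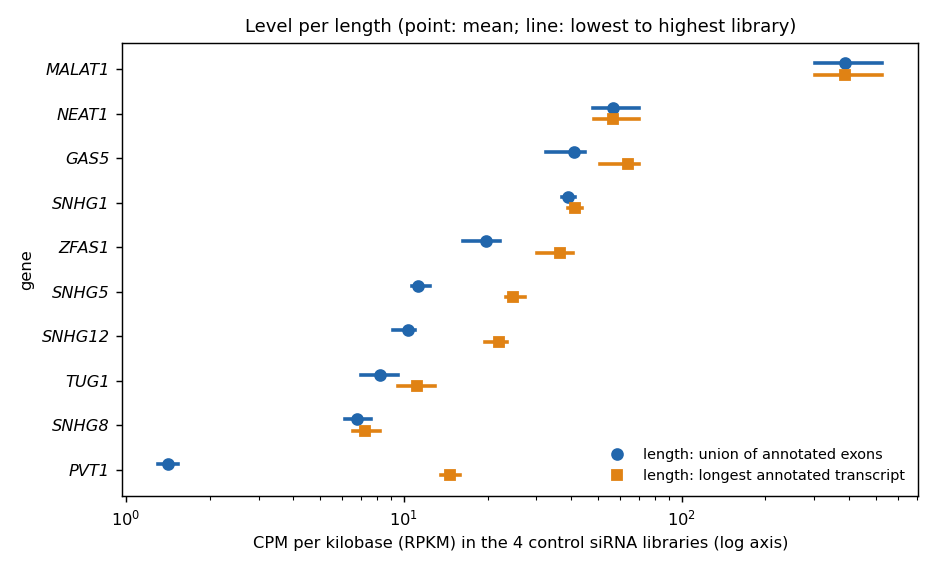
CPM per kilobase (RPKM, x axis, log scale) of each gene in the 4 control siRNA libraries, with points at the mean and lines from the lowest to the highest library, for the exon union (circles) and the longest transcript (squares). MALAT1 is at 385 on both lengths, while PVT1 is at 1.41 on one and 14.7 on the other.

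Genes of the same pathways were counted in 8 lists of which 128 genes were tested, and 1 passed 0.01, where 2.76% of all tested genes did. Of 22 other snoRNA host genes listed, 19 were tested and 0 were called by edgeR at 0.01. Their median log2 fold change was -0.25, with 17 of 19 below 0, against 0.0082 over all genes. Over all genes, 8682 of 17811 were below 0. At 0.05, 2 of the hosts were lower, where 3.54% of all genes were. DANCR, which hosts snoRNAs and is named for a role in holding cells undifferentiated, had 15.0 ± 3.92 CPM with NFE2L2 siRNA and 28.3 ± 5.76 with control siRNA (SD, n = 3 and 4), a difference of -0.92 (edgeR adjusted p = 0.0273). SNHG7 had 34.5 ± 1.41 against 44.02 ± 3.03 (SD), a difference of -0.35 (edgeR adjusted p = 0.0494). The 3 most abundant of the list were SNHG29 at 533 CPM in the controls and a difference of -0.01, SNHG3 at 423 and 0.06, and SNHG16 at 172 and -0.07.

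The snoRNP proteins, which pack snoRNAs, had a like median. Of 18 listed, 17 were tested, 0 passed 0.01, and 15 were below 0 with a median of -0.21. The one gene past 0.05 was NOP56, a core protein of C/D box snoRNPs, at 272 ± 11.4 against 374 ± 25.8 CPM (SD), a difference of -0.46 (edgeR adjusted p = 0.0132). FBL, the methyltransferase of these particles, had -0.27 (edgeR adjusted p = 0.138), and NOLC1, a nucleolar chaperone of snoRNPs, had -0.23 (edgeR adjusted p = 0.170). RNase P, RNase MRP and tRNase Z, which process transfer and ribosomal RNA precursors were represented by 12 genes. RNase P also cuts the 3′ end of MALAT1 and NEAT1. All 12 were below 0, as were 8682 of all 17811 tested genes, with a median of -0.29, and 0 passed 0.01. RPP40, a protein subunit of RNase P, was at 9.81 ± 1.63 against 15.5 ± 1.18 CPM (SD), a difference of -0.66 (edgeR adjusted p = 0.0179). ELAC2, the tRNase Z, had -0.10 (edgeR adjusted p = 0.539), POP4 had -0.28 (edgeR adjusted p = 0.0825) and POP1 had -0.29 (edgeR adjusted p = 0.154).

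The proteins of the nuclear bodies that hold NEAT1 and MALAT1 had medians near 0. Of 15 paraspeckle proteins tested 0 passed 0.01 or 0.05, with a median of 0.05 and a range from RBM14 at -0.41 to HNRNPM at 0.27. NONO, a paraspeckle core protein, had 0.04, HNRNPK had 0.06 and MATR3 had -0.12. Of 18 nuclear speckle proteins and SR splicing factors 0 passed either threshold, with a median of 0.06 and a range from -0.15 to 0.36, the highest being CLK1, a kinase of SR proteins. The most abundant were SRSF1 at -0.07, SRSF2 at -0.14 and SRSF3 at -0.04. Nonsense-mediated decay removes the spliced RNA of some host genes. Of 15 of its factors tested 0 passed either threshold and the median was -0.01, with SMG1 at 0.01, EIF4A3 at -0.26 and SMG5 at -0.03. Of 17 genes for translation factors and related proteins whose mRNAs carry a TOP tract 0 passed 0.01 and the median was -0.02. EEF1A1 had -0.03, EEF2 -0.02 and TPT1 0.09, while NPM1, a nucleolar chaperone, was at 951 ± 112 against 1362 ± 90.5 CPM (SD), a difference of -0.52 (edgeR adjusted p = 0.0168).

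Of 17 other abundant or long-lived lncRNAs listed, 15 were tested, and MEG3 was the one called at 0.01. MEG3, an imprinted lncRNA that is lost in many tumours, rose from 14.8 ± 4.35 to 41.9 ± 10.5 CPM (SD, n = 4 and 3), a log2 fold change of 1.503 (SE 0.242, edgeR adjusted p = 0.00577). It was no longer called against either control duplex alone, nor without NFE2L2 duplex 1, NFE2L2 duplex 3 or any one control library. OIP5-AS1 had 227 ± 22.1 against 154 ± 14.8 (SD), a difference of 0.56 (edgeR adjusted p = 0.0122). RN7SK, the abundant RNA that holds the elongation factor P-TEFb inactive, had 0.14 (edgeR adjusted p = 0.561), and NORAD had 0.23 (edgeR adjusted p = 0.474). The median of the list was 0.12.

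**Figure D5:**
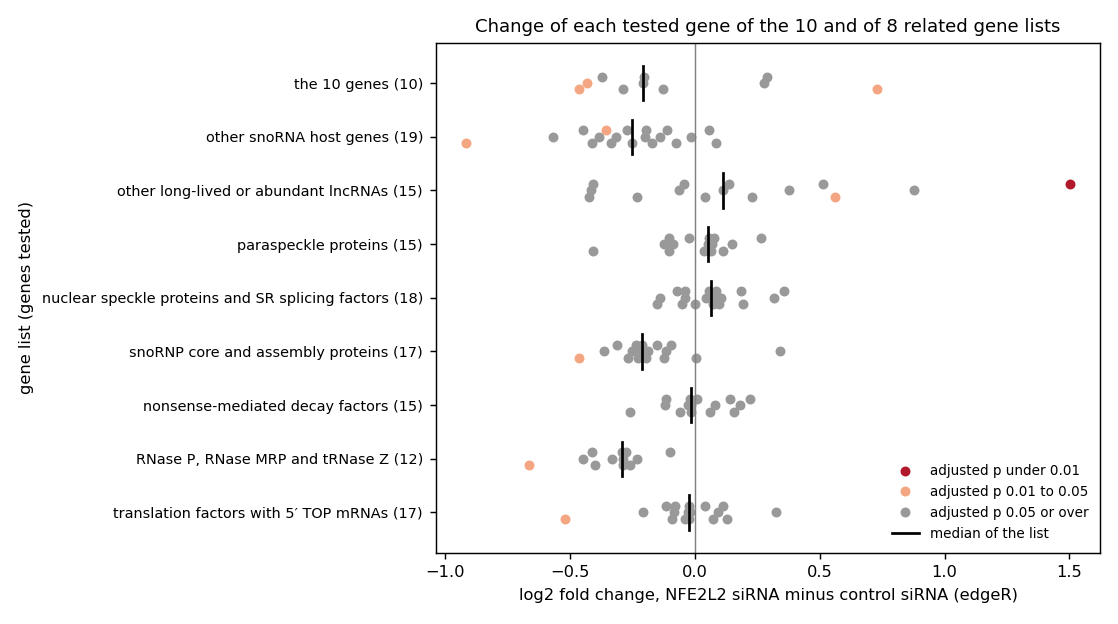
edgeR log2 fold change (x axis, NFE2L2 siRNA minus control siRNA) of every tested gene of the 10 and of the 8 related lists, coloured by adjusted p, with a black line at each list's median and the number of genes tested in brackets. The medians of the snoRNA hosts (-0.25), snoRNP proteins (-0.21) and RNase P genes (-0.29) lie left of 0, and MEG3 at 1.503 is the one gene under 0.01.

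The coding gene with the nearest start was set beside the genes, and none of the neighbours given here passed 0.01. MYC starts 59092 bases from PVT1. Its reads numbered 4875, 5107 and 5184 in the NFE2L2 siRNA libraries and 5921, 6564, 6160 and 6310 in the controls. Its difference was -0.39 (SE 0.0856, edgeR adjusted p = 0.0241) beside -0.37 for PVT1, but the 3 NFE2L2 duplexes were alike in MYC and spread in PVT1. SLC3A2, the heavy chain of the cystine transporter, starts 51 bases from SNHG1 on the other strand. It had 8211, 27645 and 17572 reads with NFE2L2 duplexes 1, 2 and 3 and 24889 to 30325 in the controls (log2 fold change -0.74, SE 0.294, edgeR adjusted p = 0.155). SNHG1 did not share this spread, with 4424, 4708 and 4356 reads in the same 3 libraries. ZNFX1, 248 bases from ZFAS1 on the other strand, had 0.30 (edgeR adjusted p = 0.107) beside -0.21 for ZFAS1. ZBTB37 beside GAS5 had 0.04, MORC2 beside TUG1 -0.08, FRMD8 beside NEAT1 0.01, PRSS12 beside SNHG8 0.14 and RAB42 beside SNHG12 0.31. The neighbour of SNHG5 had at most 5 reads per library and was not tested.

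Some markers differed between the groups as well. CDH1 and KRT19 were higher with NFE2L2 siRNA by 0.74 and 0.88 (edgeR adjusted p = 0.0455 and 0.0201). These are 2 of 6 epithelial markers, where 4.63% of all genes were called higher at 0.05. CDH1 also differed between the control duplexes, with 7189 and 5406 reads for duplex 1 and 4139 and 3627 for duplex 2. It had 8476, 8747 and 9868 reads with the NFE2L2 duplexes and 4165 in the mock library. COL1A1 was higher by 1.497 at 12.1 against 4.29 CPM and CDH5 by 1.99 at 0.677 against 0.170, both called at 0.01, and COL3A1 was higher by 1.00 (edgeR adjusted p = 0.0359). COL1A1, CDH5 and COL3A1 are 3 of the 4 tested markers of other cell types. Of all genes, 2.76% were called at 0.01 and 4.63% were called higher at 0.05. The part of the markers in the values of the 10 genes was not tested. In bulk RNA, more RNA per cell and a greater number of cells that express a gene cannot be told apart.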

How the data were processed

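Total RNA from 8 transfections of A549 cells was sequenced strand-specifically, and samples were grouped by the labels. The authors deposited counts: reads aligned to hg19 with HISAT 0.1.6 and assigned to GENCODE 19 genes with HTSeq 0.6.0, per the submitters' processing notes and the study's methods, without normalization. Counting was strand-specific and kept only reads lying wholly within exons, so intronic reads fall in the class of no gene. The classes of unassigned reads (11.7% to 15.3% with no feature) were left out of library sizes.

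Positions, lengths and gene types came from GENCODE 44 lifted to hg19, which held 55538 of the 60291 identifiers. Reads were compared with edgeR 4.0.16 in R 4.3.3 (quasi-likelihood test by glmQLFit and glmQLFTest, TMM scaling, prior count of 0.125). A gene was tested if 1 or more of the compared libraries had 10 reads on it, p-values were adjusted by Benjamini-Hochberg across the whole table, and calls used 0.01. The SE was obtained by dividing the size of the log2 fold change by the root of its F. The script was tested on simulated data. DESeq2 1.42.0, limma-voom (limma 3.58.1), other scalings, filters and control groups and the omission of each library were the alternatives. No pair of libraries agreed within sampling noise.

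The 10 genes, the gene lists and the markers were chosen with earlier results of these data known. Named are the 10 genes, the coding gene with the nearest start, the snoRNA genes in the hosts, and of each list every gene past the threshold or else the 3 with most reads; genes past 0.05 and the ends of 2 list ranges were added after their values were seen. Identifiers of 7 listed genes and markers (SNHG4, RMRP, RPPH1, TAF15, ZNHIT3, RBM8A and PECAM1) were not matched and are not analysed here. Not every neighbouring gene is reported here. The mock library entered no test except as an alternative.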

Additional observations from a re-analysis of the deposited data

How the results depend on the processing

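The direction of the 10 genes between NFE2L2 and control siRNA held under all alternatives. Of 180 values for single genes, 8 passed the threshold where the main value did not and 0 reversed. The number of the 10 genes called was 0, and it was 3 with DESeq2 (1314 of all genes called, against 491), 1 with a filter of 1 read (MALAT1, 1019), 3 at a threshold of 0.05 (1456) and 1 with the mock library among the controls (SNHG1, 772). The number of genes called in the 8 lists was 1, and it was 7 with DESeq2, 6 with a filter of 1 read, 7 at 0.05 and 5 with the mock library added. It was 0 with control duplex 1 alone (120 of 17631 genes called), control duplex 2 alone (59 of 17680) or the libraries of each duplex summed (78 of 18599), which leave fewer libraries. Without single libraries it was 0 to 2. It was 0 without NFE2L2 duplex 3 or any one control, where 163 to 277 of all genes were called. It was 2 without NFE2L2 duplex 1 (RPP40 and SNHG15, 540 of all genes called) or duplex 2 (MEG3 and OIP5-AS1, 915). The cause was not tested.

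Between the control duplexes the number of the 10 genes called was 0 (566 of 17261 genes called), and it was 2 with DESeq2 (760), 2 with library size alone (689) and 2 at 0.05 (1736). Over all genes, 4 were called with a filter of 1 read and 0 in the fit of all 7 libraries. Without single libraries it was 0 to 5, with the lone library assumed to vary like the others: 3 without replicate 1 (1340 of 17110 genes called), 5 without replicate 2 (2056 of 17139), which are the transfections of duplex 1, and 0 without either library of duplex 2 (0 of all genes). Values near 0 changed sign: PVT1 was 0.042 with library size alone, and SNHG1 was -0.0040 with a filter of 1 read and -0.0039 in a fit of all 7 libraries. Without single libraries PVT1 ran from -0.12 to 0.11, SNHG1 from -0.082 to 0.081, SNHG12 from -0.055 to 0.21, SNHG5 from -0.19 to 0.012 and ZFAS1 from -0.00085 to 0.35. With the transfection number as a replicate block 4 of the 10 genes were called (GAS5, MALAT1, NEAT1 and TUG1), beside 2615 of 17261 genes. The transfections of the 2 duplexes share only a number, with a correlation of 0.17 between their deviations. No paired analysis was possible for NFE2L2 against control siRNA because the NFE2L2 duplexes share no number with the control transfections.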

Other observations

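H19 and SNHG16 of the lists varied more between single libraries than between the NFE2L2 and control siRNA means, and they were chosen after their values were seen. The NFE2L2 siRNA and mock libraries differ in duplex as well as in transfection, and these cannot be told apart. H19, an imprinted lncRNA, had 1513, 1165 and 4545 reads with NFE2L2 duplexes 1, 2 and 3, between 2071 and 2586 in the control siRNA libraries and 5384 in the mock library. The snoRNA host SNHG16 had 4138, 7959 and 7315 reads with the NFE2L2 duplexes, 5750 to 6843 with control siRNA and 10078 in the mock library.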
